A study of Homo sapiens with 18 samples.

Results

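Matrix metalloproteinases (MMPs) and tissue inhibitors of metalloproteinases (TIMPs) were followed through a CAGE-seq data set, a method that sequences the capped 5′ ends of RNA. The members were given by name, and the rows of the expression table whose Ensembl identifier belonged to MMP1, MMP7, MMP9, MMP10, MMP14, MMP15, TIMP1, TIMP2 or TIMP3 were taken. All 9 members were found among the 16575 genes of the table, and all 9 were among the 13022 genes with at least 5 CPM (reads scaled to a library total in the deposited table) in at least 1 library. MMP7 and MMP10 passed this filter through CAL-29 alone, and MMP9 through the libraries with WWOX of HT-1376 and 1 such library of CAL-29 alone. Where such a member is called in favour of those libraries, the adjusted p given is that of the fit to all 16575 genes without a filter.

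The study asked how WWOX, a tumour suppressor gene, alters the effects of the transcription factors AP-2α and AP-2γ in bladder cancer. Every cell line (RT-112, CAL-29, HT-1376) was transduced stably with lentivirus in succession, first with WWOX or a blank control under puromycin and then with AP-2α, AP-2γ or a blank control under G418. The resulting 6 variants were KK (both blanks), KA (blank, AP-2α), KC (blank, AP-2γ), WK (WWOX, blank), WA (WWOX, AP-2α) and WC (WWOX, AP-2γ), of which WA and WC are the rescue variants. There was 1 library per variant and cell line, or 18 in all, and p-values measure only the spread between these libraries. RT-112 was grown in RPMI-1640 and the other lines in DMEM, so that line and medium cannot be told apart. WWOX was expressed from a CMV promoter in a vector that also carries GFP, and AP-2 from a CMV promoter in a second vector. The variants WK, WA and WC of a cell line share a first transduction, as do KK, KA and KC, so that WWOX and any other divergence of the transduced populations cannot be told apart. WK, WA and WC are called the W libraries below, and KK, KA and KC the K libraries.

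MMPs are zinc-dependent endopeptidases that are made as inactive proenzymes and that cleave the collagens, proteoglycans and glycoproteins around a cell. MMP1, MMP7, MMP9 and MMP10 are secreted, while MMP14 and MMP15 are anchored in the plasma membrane by a transmembrane segment. TIMPs bind the active site of MMPs and block it, and TIMP2 with MMP14 also forms the surface complex in which the proenzyme of MMP2 is activated. In bladder carcinomas, as in other epithelial tumours, these enzymes are studied for their part in invasion through the basement membrane.

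MMP7, MMP10 and MMP1 lie in 1 cluster on chromosome 11, on the minus strand (GENCODE 44, GRCh38). MMP7 (ENSG00000137673.9) is at 102520508 to 102530750, MMP10 (ENSG00000166670.10) at 102770502 to 102780628 and MMP1 (ENSG00000196611.6) at 102789401 to 102798160. MMP9 (ENSG00000100985.7) is on chromosome 20 at 46008908 to 46016561. The membrane-bound MMP14 (ENSG00000157227.14) is on chromosome 14 at 22836560 to 22849041, and MMP15 (ENSG00000102996.5) is on chromosome 16 at 58025754 to 58046901. The inhibitors are each on a chromosome of their own. TIMP1 (ENSG00000102265.12) is on chromosome X at 47582408 to 47586789, within SYN1 and on the opposite strand. TIMP2 (ENSG00000035862.13) is on chromosome 17 at 78852977 to 78925387. TIMP3 (ENSG00000100234.12) is on chromosome 22 at 32801705 to 32863041, within SYN3 and on the opposite strand. Whether strand was used when reads were assigned to genes is not given in the sources used here, so TIMP1 and TIMP3 could share reads with these partners.

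AP-2α and AP-2γ are transcription factors, and CAGE-seq reads where transcripts start. The bases just before the start are therefore shown for 4 members, the pair of secreted enzymes with a TATA box and the pair with an AP-2 motif. The sequences are the 250 bases before the RefSeq start (GRCh38.p14), and 6 of the 9 members were found in that table (MMP7, MMP10, MMP14, MMP15, TIMP1 and TIMP3). Capitals mark the letters GCCNNNGGC, a palindrome bound by AP-2 factors, TGANTCA, the motif of AP-1 factors, and TATAAA, on either strand.
MMP7, chr11:102530748-102530997, minus strand: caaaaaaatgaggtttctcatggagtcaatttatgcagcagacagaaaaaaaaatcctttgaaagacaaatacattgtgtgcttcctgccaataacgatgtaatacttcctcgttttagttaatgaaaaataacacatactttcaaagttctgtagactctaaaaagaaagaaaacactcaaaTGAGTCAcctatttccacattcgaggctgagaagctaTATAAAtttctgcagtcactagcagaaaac
MMP10, chr11:102780629-102780878, minus strand: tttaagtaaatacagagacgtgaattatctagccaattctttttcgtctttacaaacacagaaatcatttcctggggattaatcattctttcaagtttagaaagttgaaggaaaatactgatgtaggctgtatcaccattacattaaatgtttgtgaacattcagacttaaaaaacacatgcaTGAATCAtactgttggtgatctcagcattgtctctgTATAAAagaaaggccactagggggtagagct
MMP15, chr16:58025504-58025753, plus strand: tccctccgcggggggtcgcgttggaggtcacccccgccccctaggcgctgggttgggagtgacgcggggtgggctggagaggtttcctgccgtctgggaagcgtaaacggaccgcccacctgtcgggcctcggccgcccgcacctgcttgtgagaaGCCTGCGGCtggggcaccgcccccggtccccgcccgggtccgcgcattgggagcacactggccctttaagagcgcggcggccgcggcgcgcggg
TIMP3, chr22:32801455-32801704, plus strand: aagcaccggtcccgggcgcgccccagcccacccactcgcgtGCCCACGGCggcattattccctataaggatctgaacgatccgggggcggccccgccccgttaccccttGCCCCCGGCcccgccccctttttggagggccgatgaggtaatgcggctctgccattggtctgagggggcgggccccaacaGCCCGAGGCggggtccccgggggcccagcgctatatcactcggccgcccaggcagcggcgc
MMP7 and MMP10 both had an AP-1 match whose first base lies 67 bases before the start, and a TATAAA match at 30 and 31 bases. MMP15 had 1 match to GCCNNNGGC, at 94 bases, and TIMP3 had 3, at 209, 141 and 61 bases. MMP14 and TIMP1 had no match to these 3 motifs in this window. Of 35116 promoter windows of the same length, 19.8% held GCCNNNGGC, 6.6% TGANTCA and 10.7% TATAAA. The windows of MMP7 and MMP10 were poor in G and C (33.6% and 34.4%), those of MMP15 and TIMP3 rich (74.8% and 72.4%), and the median of all windows was 58.0%. A match is a description of these letters and not evidence of binding.

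Between 13357102 and 17958572 reads per library were assigned to genes. A single read was thus worth 0.0526 to 0.0709 CPM. The limit taken for a gene without reads was 3 reads, worth 0.158 to 0.213 CPM, which accounts for the error of counting and no other. The library labelled CAL-29 KC stood apart, since its median Pearson r over all genes was 0.959 with the libraries of HT-1376 and 0.841 with those of CAL-29. It is shown apart and was left out of the fits per cell line. The CPM of WWOX was higher in WK than in KK only in CAL-29 (155 against 63.7). In RT-112 all W libraries (18.5 to 22.3) were below all K libraries (23.5 to 26.0), and in HT-1376 it was 18.6 to 23.1 in the W libraries and 16.95 to 24.7 in the K libraries. Transcripts made from the vector can start elsewhere than at the gene's own promoter, so this value does not check the labels, and groups are given as labelled. TFAP2A, the gene of AP-2α, was higher in KA than in KK in all 3 lines (46.8 against 18.01, 101 against 69.0 and 49.9 against 35.4 CPM in RT-112, HT-1376 and CAL-29), and in WA than in WK in 2 of 3 (25.3 against 20.3, 69.9 against 76.9 and 86.7 against 61.7 CPM). For TFAP2C, the gene of AP-2γ, KC exceeded KK in RT-112 and HT-1376 (264 against 57.95 and 214 against 158 CPM) and WC exceeded WK in all 3 lines (143 against 56.2, 163 against 69.0 and 339 against 93.1 CPM). TFAP2C also stood at 179.87 CPM in the library labelled RT-112 WA, above the 143 CPM of WC in that line. That library is used below as labelled, that is as AP-2α. The epithelial markers EPCAM, CDH1, KRT8, KRT18 and KRT19 were all detected, and of the endothelial markers none was in the table.

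CAGE-seq counts 1 end per molecule whatever its length, so levels of different genes are set side by side here. The comparison is approximate, since the rule that assigns 5′ ends to genes is not given in the sources used here. MMP14 was the most abundant protease of the 9 and differed little between the cell lines, at a mean of 236 ± 32.8 CPM (SD, 6 libraries) in RT-112, 244 ± 57.8 CPM (SD, 6 libraries) in HT-1376 and 260.1 ± 57.6 CPM (SD, 5 libraries) in CAL-29. MMP15 was lower than MMP14 in every library, at 21.3 ± 3.57, 26.0 ± 5.08 and 22.8 ± 4.29 CPM in the same order. Among the 6 MMPs followed, these membrane-bound enzymes therefore made up most of the signal. They had 181 to 336 CPM per library against 0.14 to 101 CPM for the 4 secreted members together. MMPs outside the members were not all low. MMP28 was at 188 to 295 CPM in HT-1376, 66.3 to 99.4 CPM in RT-112 and 6.50 to 14.7 CPM in CAL-29 without the library labelled CAL-29 KC. MMP2 was at 43.8 to 156 CPM in RT-112.

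The secreted members were low or undetected in most libraries. MMP7, called matrilysin, was above the limit of 3 reads in CAL-29 only, with 1.40 CPM in KK, 12.6 in KA, 16.9 in WK, 12.4 in WA and 29.8 in WC. In the 12 libraries of RT-112 and HT-1376 it never exceeded 0.06 CPM. MMP7 had no read in the library labelled CAL-29 KC, which here was unlike the other CAL-29 libraries and like both RT-112 and HT-1376. MMP10, a stromelysin, lay between 4.32 and 23.3 CPM in CAL-29, between 0 and 3.64 CPM in HT-1376 and between 0 and 0.5 CPM in RT-112. MMP1, the interstitial collagenase, did not follow the cell line, with a lowest, median and highest value of 0.16, 1.32 and 1.93 CPM in RT-112, 0.07, 3.10 and 12.0 CPM in HT-1376 and 0.28, 4.85 and 7.48 CPM in CAL-29. MMP9, or gelatinase B, was at most 0.49 CPM in RT-112 but reached 51.9 CPM in HT-1376 and 54.7 CPM in CAL-29.

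Among the inhibitors TIMP3, which binds to the extracellular matrix, was the most abundant on average. Its mean was 204 ± 39.5 CPM in RT-112, 409.9 ± 329 CPM in HT-1376 and 177 ± 117 CPM in CAL-29, so that the libraries of HT-1376 spread most. In the library labelled CAL-29 KC it was 901 CPM, more than any CAL-29 library (45.4 to 329), and with it the mean of CAL-29 was 298 CPM. TIMP1 was highest in RT-112 (126 ± 39.7 CPM) and lay at 64.2 ± 13.7 CPM in HT-1376 and 57.4 ± 24.7 CPM in CAL-29. TIMP2 was highest in HT-1376 (82.9 ± 42.0 CPM), with 31.9 ± 7.12 CPM in RT-112 and 35.1 ± 14.9 CPM in CAL-29.

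**Figure D1:**
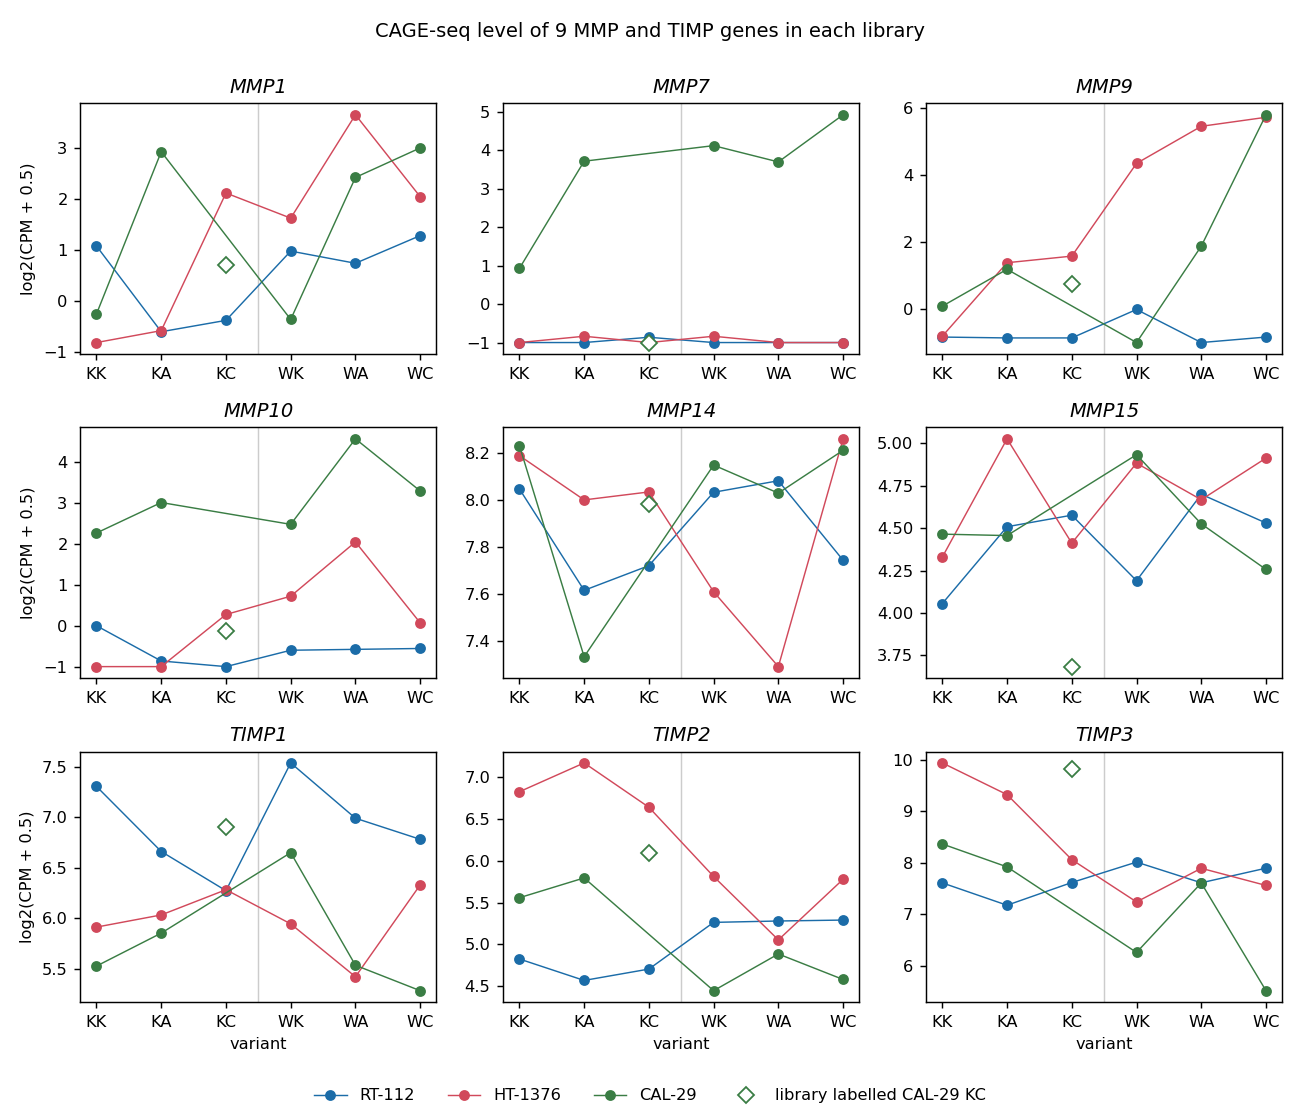
Level of each member in each library, as log2(CPM + 0.5) on axes that differ between panels, over the 6 variants with 1 line per cell line. The open diamond is the library labelled CAL-29 KC and the grey line divides K from W libraries. MMP7 is high in CAL-29 alone, MMP9 reaches 51.9 CPM in the W libraries of HT-1376, and TIMP2 and TIMP3 of HT-1376 are lower in all 3 W libraries than in any K library.

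The order of the cell lines was tested in limma on log2(CPM + 0.5), with terms for both transductions and Benjamini-Hochberg adjustment over all genes. Libraries of a line are variants of 1 culture, so this test measures the spread between variants. RT-112 against HT-1376 had 3 of 9 members called, while 62.2% of all genes were called (19.6% higher and 42.6% lower in RT-112). These were MMP9 (log2FC −3.67, SE 0.86, adjusted p 0.00178 without a filter), TIMP1 (0.94, SE 0.23, adjusted p 0.00226) and TIMP2 (−1.22, SE 0.30, adjusted p 0.00234). In RT-112 against CAL-29, 4 of 9 members and 72.4% of all genes were called (15.9% higher and 56.5% lower in RT-112). The members were MMP7 (log2FC −4.45, SE 0.43, adjusted p 4.30e-07 without a filter), MMP10 (−3.62, SE 0.43, adjusted p 3.36e-06 without a filter), MMP9 (−2.30, SE 0.91, adjusted p 0.0364 without a filter) and TIMP1 (1.196, SE 0.24, adjusted p 0.000406). MMP9 of CAL-29 had a median of 1.77 CPM, with 54.7 CPM in WC and at most 3.16 CPM in the other libraries. Called members lower in RT-112 numbered 3, but 2 with a pseudocount of 2 CPM. They were also 2 without the AP-2α libraries, and 2 without the AP-2γ libraries. HT-1376 against CAL-29 had 4 of 9 members and 60.8% of all genes called (18.3% higher and 42.5% lower in HT-1376), and here MMP7 (−4.42, SE 0.43, adjusted p 5.11e-07 without a filter) and MMP10 (−2.84, SE 0.43, adjusted p 5.12e-05 without a filter) were lower in HT-1376. TIMP2 (1.11, SE 0.32, adjusted p 0.00714) and TIMP3 (1.198, SE 0.42, adjusted p 0.0232) were higher in HT-1376. With the library labelled CAL-29 KC included, the TIMP3 difference fell to 0.75 (adjusted p 0.207). Since the filter admitted MMP7, MMP9 and MMP10 through libraries where they are high, these counts of members support nothing about the set.

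These line differences depend on the scaling, since the median log2FC of all genes moved from −0.43 to −0.10 in RT-112 against HT-1376 when TMM factors were used, from −0.82 to −0.17 in RT-112 against CAL-29 and from −0.45 to −0.11 in HT-1376 against CAL-29. Genes called higher and lower were 2552 and 5548 as deposited against 3672 and 4065 with TMM in the first comparison, 2074 and 7359 against 4048 and 5037 in the second, and 2383 and 5536 against 3439 and 3983 in the third. MMP14 and MMP15 were not called in any line comparison as deposited, with 95% intervals of −0.53 to 0.27 and −0.46 to 0.30 for RT-112 against CAL-29. After TMM scaling MMP14 (0.58, adjusted p 0.0155), MMP15 (0.61, adjusted p 0.00496) and TIMP3 (1.22, adjusted p 0.0118) were higher in RT-112 than in CAL-29, and MMP15 was higher in HT-1376 than in CAL-29 (0.54, adjusted p 0.0142). MMP9 of RT-112 against CAL-29 then lost its call (adjusted p 0.0563).

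In HT-1376 the W libraries held more MMP9 and less TIMP2 and TIMP3 than the K libraries, and no other member was called. The SE and p-values per cell line came from a joint limma fit whose spread was pooled over the lines. MMP9, which degrades gelatin and basement membrane collagen, was at 0.07 CPM in KK, 2.10 in KA and 2.48 in KC, and at 19.7 in WK, 43.0 in WA and 51.9 in WC. Every W library was above every K library, and the log2FC was 4.45 (SE 0.98, adjusted p 0.0135 without a filter). TIMP2, the inhibitor that also bridges MMP14 and pro-MMP2, was at 113 CPM in KK, 143 in KA and 99.0 in KC, and at 55.6 in WK, 32.7 in WA and 54.3 in WC. All 3 W libraries were below all 3 K libraries, and the log2FC was −1.33 (SE 0.22, adjusted p 0.00365). TIMP3 was at 978 CPM in KK, 639 in KA and 266 in KC, and at 151 in WK, 237 in WA and 188 in WC. Here too the groups did not overlap, although KC lay just above WA, and the log2FC was −1.54 (SE 0.44, adjusted p 0.0441). The library labelled CAL-29 KC, which resembled HT-1376, had 1.19 CPM of MMP9, 67.8 of TIMP2 and 901 of TIMP3, within the range of the HT-1376 K libraries for MMP9 and TIMP3 and outside it for TIMP2.

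Called members were thus 3 of 9 in HT-1376, where 8.59% of the genes tested were called (4.21% higher and 4.38% lower). Of the 9 members, 1 had all W libraries above the K libraries and 2 had them below, and over all genes 12.8% and 22.8% did so, so that the share of members below was near the background. The count includes MMP9, which entered through the W libraries, and supports nothing about the set. The median log2FC of all genes was −0.13 with the deposited scaling and −0.03 with TMM factors, which changed none of the 3 calls (adjusted p 0.00967 for MMP9, 0.00717 for TIMP2 and 0.0307 for TIMP3). Without the KK and WK libraries the adjusted p-values were 0.0643, 0.0651 and 0.443, and without the KA and WA libraries 0.103, 0.0518 and 0.0820, with every direction retained. MMP1 and MMP10 were not called in HT-1376 (log2FC 2.20 and 1.52, adjusted p 0.140 and 0.101). MMP1 was at 0.07, 0.17 and 3.83 CPM in KK, KA and KC against 2.58, 12.0 and 3.62 in WK, WA and WC, and MMP10 at 0, 0 and 0.71 CPM against 1.15, 3.64 and 0.55, so that both overlapped. MMP14, MMP15 and TIMP1 had 95% intervals that included 0, for MMP14 from −0.84 to 0.14.

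MMP14, MMP15 and TIMP1 were called in no cell line. MMP14, the main membrane-anchored collagenase, was at 291, 256 and 262 CPM in KK, KA and KC of HT-1376 and at 195, 156 and 306 in WK, WA and WC. Its CAL-29 values were 299.96 CPM for KK and 161 for KA, and 283, 261 and 296 for the W libraries. Those of RT-112 were 264, 196 and 210.4 CPM for the K libraries and 261, 270.4 and 214 for the W libraries. WA was thus the lowest library in HT-1376 and the highest in RT-112. MMP15, its close relative, stayed between 16.1 and 32.1 CPM in all libraries but the one labelled CAL-29 KC (12.3), and its groups overlapped in every cell line. TIMP1, a broadly acting inhibitor, was at 158, 101 and 76.9 CPM in KK, KA and KC of RT-112 and at 186, 127 and 109.6 in WK, WA and WC. In that line each W library was above the K library with the same second transduction, though the groups overlapped. In HT-1376 it was at 59.7, 65.0 and 77.4 CPM against 61.1, 42.3 and 79.98, and in CAL-29 at 45.6 and 57.3 against 99.9, 45.8 and 38.4. The W libraries of CAL-29 therefore held both the highest and the lowest TIMP1 value of the 5.

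**Figure D2:**
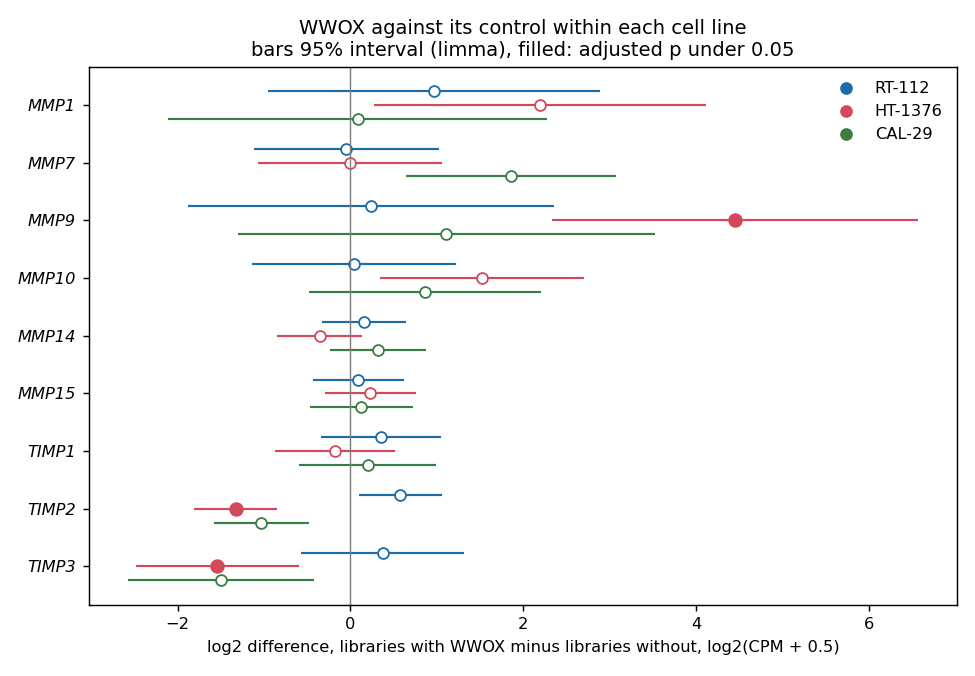
Difference between W and K libraries for each member within each cell line, on the log2(CPM + 0.5) scale, with 95% intervals from limma and filled points at an adjusted p under 0.05. The intervals use a spread pooled over the cell lines. The filled points are MMP9 (4.45), TIMP2 (−1.33) and TIMP3 (−1.54) of HT-1376, and TIMP2 lies on opposite sides of 0 in RT-112 and the other lines.

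In CAL-29 the inhibitors TIMP2 and TIMP3 were lower in the W libraries in values, but no member was called, while 0.591% of all genes were (0.330% higher and 0.261% lower). TIMP2 was at 46.6 CPM in KK and 55.0 in KA against 21.3 in WK, 29.1 in WA and 23.5 in WC (log2FC −1.03, SE 0.26, adjusted p 0.0876). TIMP3 was at 329 and 242 CPM against 76.2, 195 and 45.4 CPM (log2FC −1.50, SE 0.50, adjusted p 0.214). These were the 2 members with all W libraries below the K libraries, as for 9.80% of all genes, and there were 2 K libraries only. With the library labelled CAL-29 KC included, the adjusted p of TIMP2 was 0.0414. MMP7 had a log2FC of 1.86 (SE 0.57, adjusted p 0.168), and the value of KA (12.6) lay within the range of the W libraries (12.4 to 29.8). MMP9 differed more among the W libraries than between the groups, since WK had no read, WA had 3.16 CPM and WC 54.7 CPM, against 0.56 in KK and 1.77 in KA.

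In RT-112 no gene was called (0% of those tested, with 979 genes at an unadjusted p under 0.05). TIMP2 was at 27.9, 23.3 and 25.6 CPM in KK, KA and KC and at 37.9, 38.3 and 38.6 in WK, WA and WC. It was the only member whose W libraries were all above the K libraries, as for 9.48% of genes, and its log2FC was 0.58 (SE 0.22, adjusted p 0.553 in limma). This SE is pooled over the cell lines and does not measure the spread within RT-112 alone. The difference of the WWOX effect between the cell lines was tested itself by the interaction terms, and 1 of 9 members and 3.02% of all genes were called. That member was TIMP2 (adjusted p 0.0145), which was higher in the W libraries of RT-112 and lower in those of HT-1376 and CAL-29. The call did not hold with all 18 libraries (adjusted p 0.0527) or without the libraries of 1 second transduction (0.0694 to 0.181). TIMP3 (adjusted p 0.131), MMP9 (0.170) and MMP7 (0.225) were not called.

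Over the 3 cell lines, which the study treats as replicates, no member and no gene was called in any variant against KK (0% in each of the 5 comparisons, all 18 libraries in limma). Genes at an unadjusted p under 0.05 numbered 7 for KA, 11 for KC, 38 for WK, 37 for WA and 84 for WC. No gene was called by edgeR on the recovered reads without a block either. Both fits ignore the pairing of libraries by line, so the spread between lines enters their error. With a term for the line, limma gave 63, 550, 506, 209 and 1399 in the same order, and called no gene. Members among these genes numbered 0, 0, 0, 1 and 3. Without the library labelled CAL-29 KC the genes numbered 115, 152, 745, 366 and 1823 and the members 0, 0, 1, 2 and 4, again with no gene called. The low numbers above therefore do not show that the variants are alike. The log2FC of MMP9 and MMP1 given next are from limma without the term. MMP9 in the rescue variant WC was the member with the greatest log2FC, 4.08 against KK (SE 1.84, limma unadjusted p 0.0425, adjusted p 1.000). Its value went from 0.07 to 51.9 CPM in HT-1376 and from 0.56 to 54.7 CPM in CAL-29, a ratio of 97.7, and was 0.06 CPM in both variants of RT-112. The value was therefore higher in 2 of 3 cell lines, beside a median log2FC of all genes of −0.25. MMP1 in WA had a log2FC of 2.26 (SE 1.05, limma unadjusted p 0.0484, adjusted p 1.000), with 0.07 to 12.0 CPM in HT-1376, 0.34 to 4.85 CPM in CAL-29 and 1.61 to 1.17 CPM in RT-112.

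With terms for the cell line and the second transduction, the W libraries as a whole had 0 of 9 members called (0% of all genes, with 1598 genes at an unadjusted p under 0.05). The sizes were 2.001 for MMP9 (SE 0.73, adjusted p 0.334), 0.80 for MMP10 (SE 0.35, adjusted p 0.384), −0.56 for TIMP2 (SE 0.25, adjusted p 0.398) and −0.84 for TIMP3 (SE 0.34, adjusted p 0.359). The median over the 9 members was 0.15, against −0.07 over all genes. Neither AP-2α nor AP-2γ over both first transductions had a called member (0% of all genes each, with 199 and 343 genes and 0 members at an unadjusted p under 0.05). The library labelled RT-112 WA, where TFAP2C was also high, counted as AP-2α here. Against KK of the same cell line, KA and KC held more MMP9 in HT-1376 (2.10 and 2.48 against 0.07 CPM), and KA held more MMP1 (7.08 against 0.34 CPM) and MMP7 (12.6 against 1.40 CPM) in CAL-29, each with 1 library a side and therefore no test.

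The balance of TIMP to MMP reads among the members was computed per library as the summed CPM of TIMP1, TIMP2 and TIMP3 over that of the 6 MMPs. Other MMP and TIMP genes were left out. Among these, MMP28 was at 216 to 287 CPM in the K libraries of HT-1376 and MMP2 at 65.3 to 148 CPM in those of RT-112. The ratio is therefore not that of all inhibitors to all MMPs. In HT-1376 it was 3.70 in KK, 2.92 in KA and 1.53 in KC, and 1.08 in WK, 1.30 in WA and 0.823 in WC. In CAL-29 it was 1.28 in KK and 1.68 in KA, and 0.589 in WK, 0.824 in WA and 0.258 in WC. The W libraries of both lines were thus below their K libraries. In RT-112 the ratio was 1.35, 1.23 and 1.27 in the K libraries and 1.71, 1.21 and 1.62 in the W libraries, which overlapped. TIMP3 made up 38.6% to 85.0% of the TIMP signal, with the lowest shares in WK and WC of CAL-29 (38.6% and 42.3%). No test is given for this sum over chosen members.

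**Figure D3:**
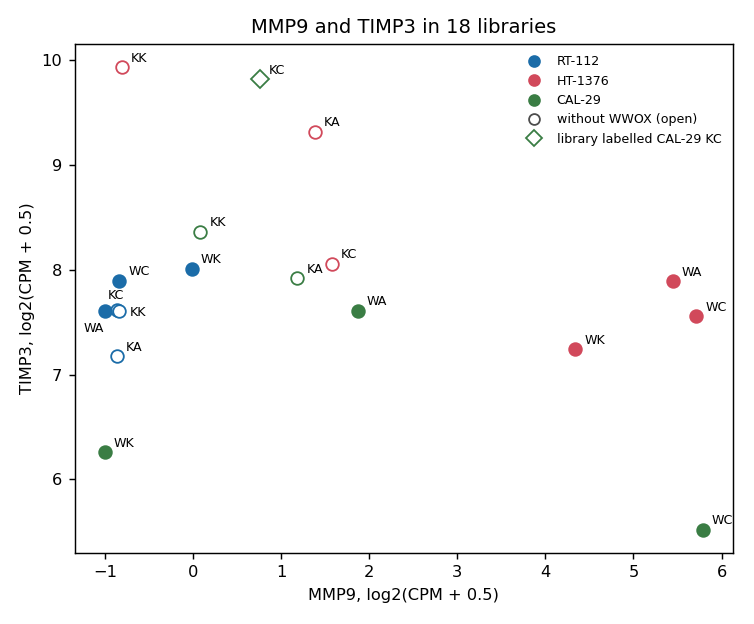
MMP9 against TIMP3 in the 18 libraries, both as log2(CPM + 0.5), with filled points for W libraries, open points for K libraries and a diamond for the library labelled CAL-29 KC. The 3 W libraries of HT-1376 and WC of CAL-29 lie at the right, with 19.7 to 54.7 CPM of MMP9, and the RT-112 libraries form 1 group at the left.

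After the mean of the cell line was subtracted from log2(CPM + 0.5), MMP9 and TIMP3 had a Pearson r of −0.675 over the 17 libraries without the one labelled CAL-29 KC. TIMP2 and TIMP3 had an r of 0.759, MMP1 and MMP10 one of 0.819 and MMP1 and MMP9 one of 0.747. The libraries share cell lines and first transductions, so these values are descriptions. By the same measure the genes most like MMP9 were the keratins KRT6B (r 0.941) and KRT6A (0.936) of stratified epithelium, which are close paralogs, and the tubulin gene TUBA4A (0.924). KRT4, a keratin of mucosal epithelium (0.927), and S100A13 (0.880) were among the 3 genes most like MMP7. As MMP7 was at most 0.06 CPM in RT-112 and HT-1376, its r values rest almost wholly on the CAL-29 libraries. DHRS3, a retinal reductase (0.928), and FAM3A (0.910) were among the 3 most like TIMP2, and RAB39B (0.943), GEMIN8 (0.924) and BEX2 (0.911) most like TIMP3. MMP10 was most like ZNF365 (0.844), KPTN (0.838) and MMP1. The nearest genes were less alike for MMP14 (QSOX1, 0.758), TIMP1 (LINC02875, 0.809) and MMP15 (GFUS, 0.850).

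The genes around these members were examined in HT-1376, the cell line in which members were called and in which 8.59% of all genes were. Of 8 other MMP and TIMP genes past the filter 1 was called. It was MMP2, the gelatinase that MMP14 and TIMP2 activate together, at 0.13, 2.72 and 4.89 CPM in KK, KA and KC against 31.0, 23.8 and 38.2 in WK, WA and WC (log2FC 3.80, SE 0.69, adjusted p 0.00529 in limma). Of 23 genes of MMP activation and pericellular proteolysis 5 were higher and 2 lower in the W libraries, with a median of 0.48 against −0.13 for all genes. PLAU, the urokinase that converts plasminogen to plasmin, was at 98.9, 92.3 and 219 CPM in the K libraries and at 375, 246 and 297 in the W libraries (1.26, SE 0.31, adjusted p 0.0255). The membrane serine protease gene TMPRSS4 was higher (2.68, adjusted p 0.00405), and ADAM15, a disintegrin and metalloproteinase, was lower (−1.04, adjusted p 0.00831). Named after their values were seen, PLAUR, the receptor of urokinase, rose from 4.21, 5.84 and 17.4 CPM to 57.8, 43.8 and 44.8 CPM (2.59, adjusted p 0.00361), and PLAT, the tissue plasminogen activator, was also higher (2.93, adjusted p 0.0257).

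Of 12 other protease inhibitors and carriers 1 was higher and 2 were lower. TFPI2, a Kunitz-type inhibitor of plasmin, was at 0.66 to 1.28 CPM in the K libraries and at 11.8 to 16.4 CPM in the W libraries (log2FC 3.22, SE 0.48, adjusted p 0.00181). The cysteine protease inhibitor CST3 (−1.05, adjusted p 0.0111) and SPINT2, an inhibitor of membrane serine proteases (−0.70, adjusted p 0.0315), were lower. Of 12 inducers, surface partners and clearance genes 1 was called, a share near that of all genes. LRP1, an endocytic receptor of protease and inhibitor complexes, was the called gene and was higher (1.47, adjusted p 0.00928). Of 16 transcription factors known at MMP promoters 1 was called, below the share of all genes. It was JUN, a subunit of AP-1, which was higher (1.07, adjusted p 0.0428 in limma). The groups of JUN overlapped, with 104 to 326 CPM in the K libraries and 292 to 360 CPM in the W libraries. In the test of the difference between cell lines PLAUR (adjusted p 0.0307) and TFPI2 (adjusted p 0.0205) were called, beside 3.02% of all genes. With all 18 libraries this test called 0 genes, so that both calls were lost. No gene of these 5 lists was called in the W libraries of RT-112 or of CAL-29.

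Markers of other cell types moved in the same libraries of HT-1376, and their part in the results was not tested. Of the fibroblast markers 4 of 6 were in the table, and their summed level was 5.33 to 12.6 CPM in the K libraries and 36.6 to 59.6 CPM in the W libraries, with COL1A1 (1.77) and COL1A2 (3.14) called higher, the latter past the filter through the W libraries of HT-1376 alone. COL3A1 was at 0 to 2.78 CPM in the K libraries and 0.11 to 0.22 CPM in the W libraries, and LUM at 0 and at 0.13 to 0.22 CPM. PDGFRB and DCN were not in the table. The leukocyte marker CD68 was higher (2.05, 1.70 to 2.38 CPM against 6.07 to 14.7 CPM), and PTPRC, CD3E and LYZ were not in the table. The summed epithelial markers ranged from 5273 to 6101 CPM in the K libraries and from 3863 to 4519 CPM in the W libraries, and of its 5 genes only KRT19 was called, higher in the W libraries (2.67). The 7 urothelial markers summed to 233 to 371 CPM in the K libraries and 136 to 212 CPM in the W libraries, with none called. In CAL-29 the fibroblast markers summed to 10.5 and 17.99 CPM in the K libraries and 5.63 to 10.1 CPM in the W libraries.

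**Figure D4:**
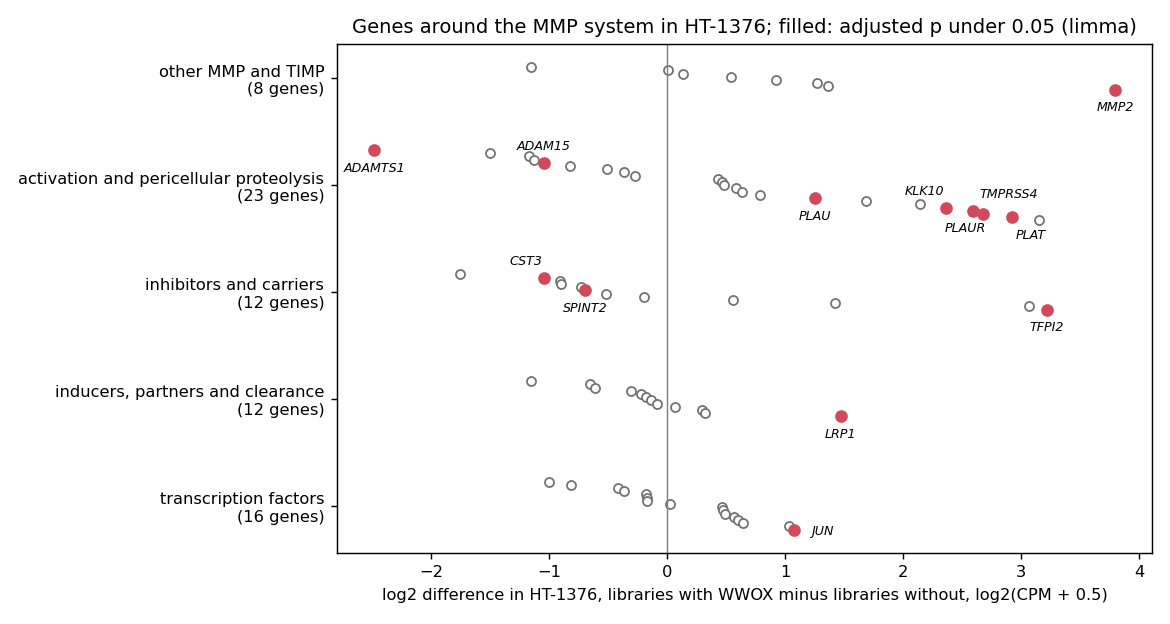
Difference between W and K libraries of HT-1376 on the log2(CPM + 0.5) scale for the genes of 5 lists around the MMP system, each point a gene and filled at an adjusted p under 0.05 in limma. MMP2 (3.80), TFPI2 (3.22), PLAT (2.93), TMPRSS4 (2.68) and PLAUR (2.59) lie farthest to the right among the filled points.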

How the data were processed

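CAGE-seq was performed on total RNA of the 18 stably transduced variants. Per the study's methods, the authors mapped 75 nt reads to hg38 with BWA and HISAT2 2.0.5, clustered 5′ ends and removed irreproducible clusters, and deposited CPM per gene and library with 2 decimals. The rule that assigns clusters to genes and their strand is not given in the sources used here. Identifiers were matched to GENCODE 44 (16553 of 16575). Between 99.79% and 99.97% of values per library were whole multiples of 1 read within 0.005 CPM, against 14.1% to 21.5% with a wrong step, and the reads were recovered from that step for the count models. For RT-112 WC the low values alone did not settle the step.

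Groups came from the labels. A gene was retained where 1 or more libraries held 5 CPM or more (13022 genes), and values were fitted as log2(CPM + 0.5) in limma 3.58.1 (R 4.3.3, trended empirical Bayes, Benjamini-Hochberg adjustment, threshold 0.05). Such a log2FC understates the change of low genes. The 5 comparisons against KK used all 18 libraries without a block, as the study's methods name none. The effects of WWOX and AP-2, the effect per cell line, its interaction and the line contrasts used 17 libraries, without the one labelled CAL-29 KC. In the fit of the effect per cell line, the spread and the AP-2 terms were shared by all lines. The cell line pairs the libraries by design, and deviations from the variant means correlated between libraries of CAL-29 at 0.036 to 0.881, of HT-1376 at 0.588 to 0.896 and of RT-112 at 0.742 to 0.915. No duplicate library was found (smallest chi-square per degree of freedom 20.4).

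The members and lists were chosen with earlier results of these data known. All members are named. Of each pathway list up to 3 called genes with the highest CPM are named, and for members with at least 20 CPM in a library the 3 most correlated genes, of which some are not reported here. Alternatives were pseudocounts of 0.05 and 2 CPM, other filters, TMM scaling, blocks, libraries left out, limma-voom, edgeR 4.0.16 and DESeq2 1.42.0 on recovered reads. On simulated data only limma fits were tested, namely WK against KK, the WWOX effect, this effect within RT-112 and HT-1376, and its interaction. The count models, the AP-2 effects and the line contrasts were not tested in this way. Python 3.11.15 with pandas 2.3.3, NumPy 2.4.6 and matplotlib 3.10.9 was used for the other steps.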

Additional observations from a re-analysis of the deposited data

Results flagged for a closer look

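Within a cell line the 6 libraries (5 in CAL-29) of each member were searched for a library far from the rest, by Dixon's test on CPM. Of 27 member and line groups 7 had such a library. The 27 include MMP7 in RT-112 and in HT-1376, which had at most 1 read per library and were not tested. Chance alone gives about 1 in 20 for normally distributed values, and whether these CPM are so distributed was not tested. The libraries of a line are different variants, so a distant value can also be a difference between variants.

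For MMP9, WC of CAL-29 stood at 54.7 CPM while the other libraries of that line held at most 3.16 CPM, and WK of RT-112 at 0.49 CPM while the others held at most 0.06 CPM. For MMP10, WA stood highest in HT-1376 (3.64 CPM) and in CAL-29 (23.3 CPM), and KK in RT-112 (0.5 CPM). MMP1 stood at 12.0 CPM in WA of HT-1376, above the next value of 3.83 CPM. MMP14 stood low at 160.69 CPM in KA of CAL-29, where the other libraries held 260.67 to 299.96 CPM. The values of RT-112 are near the limit of 3 reads.

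The WWOX effect on TIMP2 differed between the cell lines by the interaction test in limma (adjusted p 0.0145), with a log2FC of −1.33 in HT-1376, −1.03 in CAL-29 and 0.58 in RT-112. The direction was shown by all 3 W libraries of each line against every K library of that line.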

How the results depend on the processing

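Under the alternatives tried 20 calls of members were lost, and 15 fits changed direction, all of them line contrasts of MMP14 and MMP15 that were not called as deposited. Calls were gained in RT-112 against CAL-29 by MMP14, MMP15 and TIMP3 with TMM and edgeR and by MMP1 without the KK and WK libraries (−2.35, adjusted p 0.0120), in HT-1376 against CAL-29 by MMP15 with TMM and edgeR, and within CAL-29 by TIMP2 and MMP7 as given below. With TMM scaling MMP14 was 0.24 (HT-1376 against CAL-29), 0.58 (RT-112 against CAL-29) and 0.34 (RT-112 against HT-1376), and with edgeR 0.28, 0.62 and 0.34. MMP15 of RT-112 was 0.61 and 0.64 against CAL-29 (0.040 with all 18 libraries), and 0.0749 and 0.0748 against HT-1376. Leaving out the libraries of each second transduction in turn gave −0.19 to 0.024, −0.32 to 0.0088 and −0.14 to 0.17 for MMP14 in the same order of contrasts, and −0.23 to 0.20 for MMP15 of RT-112 against CAL-29.

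The cell line pairs the libraries, and with the replicate block limma called 0 genes in all 5 comparisons against KK, as without it. With edgeR and this block 5 genes were called in KC and 0 in the others. After the data were seen, the block was also fitted in edgeR without the library labelled CAL-29 KC, with 1, 3, 1 and 2 genes in KA, KC, WA and WC. DESeq2 called 3 genes in WK, 1 in KA, 5 in KC, 3 in WA and 9 in WC. No member was among these calls. For the WWOX effect edgeR called 16 genes and the pseudocount of 0.05 CPM 2, and for AP-2α and AP-2γ edgeR called 1 and 2 genes. In RT-112 against CAL-29 edgeR called 7 members beside 9060 of 13022 genes, and TMM 6 beside 9085.

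Within RT-112 the calls were 2 without a filter, 3 and 1 with pseudocounts of 0.05 and 2 CPM and 2 with TMM. Within HT-1376 they were 241 with all 18 libraries. Within CAL-29 they were 24 with edgeR, 146 without a filter and 39 with a pseudocount of 0.05 CPM, and with all 18 libraries 75 genes were called, 1 of them a member, TIMP2 (adjusted p 0.0414). The interaction had 0 genes and 0 members with all 18 libraries and 661 genes without a filter. The cause of these shifts was not tested.

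Leaving out the libraries of each second transduction in turn gave 109 to 679 genes and 0 to 3 members within HT-1376, 5 to 776 genes and 0 to 1 members within CAL-29 and 1 to 193 genes and 0 members for the interaction. The member gained in CAL-29 was MMP7, called without the KA and WA libraries (log2FC 3.51, adjusted p 0.0105). HT-1376 against CAL-29 had 4662 to 7420 genes and 2 to 4 members, RT-112 against CAL-29 7333 to 9078 genes and 3 to 5 members. Leaving out each cell line gave 0 to 6 genes for the WWOX effect. The pseudocount of 0.05 CPM ended the call of MMP9 in HT-1376 (adjusted p 0.0603), and all 18 libraries that of TIMP3 (0.146). Depth limits MMP7, MMP9 and MMP10 in RT-112, where most values are a few reads.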
